A study of Mus musculus with 4 samples.

Results

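Brown and white fat marker genes were followed through whole-kidney RNA of diabetic and control mice. The list held 10 gene symbols, namely Ucp1, Cidea, Cidec, Cox8b, Adipoq, Car3, Plin1, Cfd, Lep and Retn, and every probe annotated to them was taken. Of these, 9 genes were measured, by 10 of the 24613 probes on the array, against 15967 genes measured in all. No probe was annotated to Cfd, the complement protease adipsin, so its expression is not analysed here. The genes were chosen as a set by their diabetic minus control differences. The set had been noted as lower in both diabetic libraries in earlier work on the same data. As measured here, 5 of the 9 genes were lower in both. The differences thus describe the choice and are not tested.

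The study compared kidneys of the inbred mouse strains C57BL/6 and FVB/N on Illumina bead arrays, asking how early renal changes in diabetes depend on genetic background. The 4 groups were C57BL/6 control, C57BL/6 diabetic, FVB/N control and FVB/N diabetic, with control mice injected with saline and all mice 8 weeks old and of both sexes, after 21 days of diabetes or of control treatment. The labels give no transgene, and the sources used here do not say how diabetes was brought about. Each group had 6 kidneys but only 1 set of array values, referred to as its library; it is not stated if a library is a pool of kidneys or a single one. No difference below therefore has a replicate check or a p-value, and each compares 2 libraries.

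Fat cells come in 2 main kinds. White adipocytes store triglyceride in a single large droplet and secrete hormones such as leptin and adiponectin, while brown adipocytes hold many small droplets and many mitochondria, and turn fuel into heat by letting protons back across the inner mitochondrial membrane through UCP1. The kidney itself is embedded in perirenal fat, which in mice holds white and brown adipocytes. The labels do not say whether attached fat was removed before extraction.

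Values are log2 intensities, on which a step of 1 is a 2-fold change, and ran from 4.45 to 15.84. A gene was counted as above the expression minimum when its mean over the 4 libraries reached 5.49, the median of all probes, which held for 9201 genes. As a second yardstick, 1154 probes of olfactory and vomeronasal receptor genes, which whole kidney is not known for, gave a background level at their percentile 95. That level was 6.00 in the C57BL/6 control, 6.03 in the C57BL/6 diabetic, 5.97 in the FVB/N control and 5.61 in the FVB/N diabetic library. The FVB/N libraries lay farther apart than the C57BL/6 ones, with standard deviations of the difference over genes above the minimum of 0.55 and 0.39. For 1159 genes with 2 probes above the minimum, the error of 1 probe's difference, as a standard deviation from the disagreement of the pair, was 0.33 in C57BL/6 and 0.50 in FVB/N. This is the measure of error used below, and it does not cover variation between mice. The differences of the 2 probes correlated weakly, with a Pearson r of 0.29 in C57BL/6 and 0.24 in FVB/N. Kidney markers bore out the tissue label, with 11 of 12 above background in all 4 libraries and the phosphate transporter Slc34a1 between 14.52 and 14.97; the podocyte gene Nphs1 was above background in 1 library. In the FVB/N diabetic library 2 kidney markers stood apart from control, the androgen-regulated Kap at -2.08 and the water channel Aqp2 at 2.81, against -0.24 for each in C57BL/6. The summed linear intensity of the 12 kidney markers was 138646 and 119335 in the C57BL/6 control and diabetic libraries and 132947 and 89607 in the FVB/N ones. The brightest genes weigh most in that sum, among them Kap, at 15.03 in the FVB/N control and 12.95 in the FVB/N diabetic library. The median difference of the 12 was -0.24 in C57BL/6 and -0.07 in FVB/N. The part of these differences in the results below was not tested.

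As fat markers, the genes fell into 3 sets by level. Adipoq, Car3 and Cox8b were above the background level in all 4 libraries, Ucp1, Cidea and Cidec in some, and Plin1, Lep and Retn in none. The label of white fat thus rests here on Adipoq and Car3, which brown adipocytes also express, while the lipid droplet coat Plin1 and the hormones leptin and resistin gave no signal above background in any library. In total 6 genes passed the expression minimum and 3 did not. Of the 6, Cidec passed narrowly, with a mean of 5.72.

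**Figure D1:**
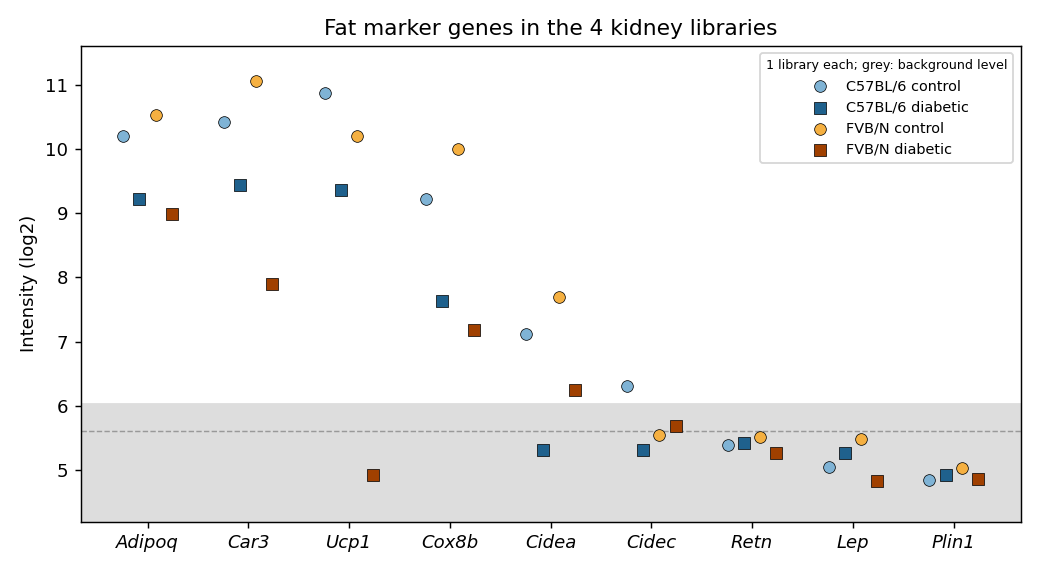
Log2 intensity of the 9 measured fat marker genes, by their brightest probe, with 1 point for each of the 4 libraries; the grey band reaches up to the highest background level of the libraries, 6.03, and the dashed line marks the lowest, 5.61. For Adipoq, Car3, Ucp1, Cox8b and Cidea both control circles lie above both diabetic squares, while Retn, Lep and Plin1 lie inside the band.

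Of the thermogenic genes, Ucp1 had the widest range. Ucp1 encodes the uncoupling protein that defines brown and beige adipocytes. Its log2 intensity was 10.87 in the C57BL/6 control, 9.36 in the C57BL/6 diabetic, 10.20 in the FVB/N control and 4.93 in the FVB/N diabetic library. The FVB/N diabetic library was thus near background while the other 3 were bright, from percentile 17.3 of all probes in that library to at least 88.0 elsewhere. The diabetic value differed from control by -1.51 log2 in C57BL/6, or 2.84-fold. In FVB/N the measured difference was -5.27, and set against the background level of that library Ucp1 was at least 24.1-fold lower. It was the lowest difference of all 9201 genes in FVB/N and the 16th in C57BL/6, ranks that the choice of the gene fixes in part.

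Cox8b encodes a subunit of cytochrome c oxidase found in brown fat, heart and skeletal muscle. Its levels were 9.22 and 7.63 in the C57BL/6 control and diabetic libraries, and 10.002 and 7.18 in the FVB/N ones. Both diabetic libraries lay below both controls. The differences were -1.60 in C57BL/6, or 3.02-fold, and -2.83 in FVB/N, or 7.09-fold. Cidea, a lipid droplet protein that promotes droplet fusion and is abundant in mouse brown fat, was measured at 7.12 and 5.31 in C57BL/6 and at 7.70 and 6.24 in FVB/N. Here the C57BL/6 diabetic library was the lowest and lay below its background level, so the C57BL/6 difference of -1.81 amounts to at least 2.13-fold lower. In FVB/N the difference was -1.45, a 2.74-fold one with both values above background.

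Adipoq encodes adiponectin, a hormone that mature adipocytes secrete into blood. Its levels were 10.20 in the C57BL/6 control, 9.21 in the C57BL/6 diabetic, 10.52 in the FVB/N control and 8.99 in the FVB/N diabetic library. The controls lay within 0.32 of each other and the diabetic libraries within 0.23, both less than the error of a single probe, and the nearest control and diabetic values were 0.99 apart. Adipoq was 1.98-fold lower with diabetes in C57BL/6 and 2.90-fold lower in FVB/N. Car3 encodes carbonic anhydrase 3, a cytosolic enzyme abundant in white and brown adipocytes and in slow skeletal muscle. Its brighter probe gave 10.42 and 9.43 in C57BL/6 and 11.06 and 7.89 in FVB/N, again with both diabetic libraries lowest. The difference was -0.99 in C57BL/6 and -3.17, or 8.99-fold, in FVB/N. The other Car3 probe lay between 5.25 and 5.50 in the 4 libraries, below background, with differences of 0.12 and -0.21, so the Car3 result rests on 1 of 2 probes.

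The stretch just before the start of transcription is shown for Ucp1, Cox8b and Adipoq, the bright markers lower in both diabetic libraries for which a RefSeq window was used, to show what sequence they share. Each is the 250 bases before the annotated start on the gene's strand, from RefSeq with build GRCm38.p6, and capitals mark the motifs found. The windows are chr8:83290098-83290347 on the plus strand for Ucp1, chr7:140900447-140900696 on the minus strand for Cox8b and chr16:23146286-23146535 on the plus strand for Adipoq.
Ucp1: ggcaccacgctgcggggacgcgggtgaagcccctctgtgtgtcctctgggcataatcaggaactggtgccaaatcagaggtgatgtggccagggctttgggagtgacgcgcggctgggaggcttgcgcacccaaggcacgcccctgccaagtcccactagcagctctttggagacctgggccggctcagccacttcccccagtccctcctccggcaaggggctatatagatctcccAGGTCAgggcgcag
Cox8b: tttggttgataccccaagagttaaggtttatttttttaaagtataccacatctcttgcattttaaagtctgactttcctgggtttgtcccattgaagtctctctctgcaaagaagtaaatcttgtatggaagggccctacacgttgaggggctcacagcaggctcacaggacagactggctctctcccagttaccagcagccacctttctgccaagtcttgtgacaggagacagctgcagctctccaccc
Adipoq: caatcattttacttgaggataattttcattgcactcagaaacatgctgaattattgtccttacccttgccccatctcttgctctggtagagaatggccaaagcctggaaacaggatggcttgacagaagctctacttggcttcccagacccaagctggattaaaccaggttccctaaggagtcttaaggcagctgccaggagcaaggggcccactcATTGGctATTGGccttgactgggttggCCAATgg

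The motifs searched were TATAAA on the gene's strand and, on both strands, CCAAT, the nuclear receptor motif AGGTCA, its direct repeat AGGTCANAGGTCA, the cAMP response element TGACGTCA and the C/EBP motif TTGCNNAA. The repeat contains AGGTCA by construction. The Ucp1 window held 1 AGGTCA, starting at position -14 counted back from the start, and 14.0% of all 32851 windows held that motif on either strand. In the Adipoq window CCAAT occurred at -7 and, on the other strand as ATTGG, at -34 and -27, and 33.8% of all windows held it. The Cox8b window held none of the motifs. The C/EBP motif was found in windows of Lep, Cidec and Plin1, and in 9.56% of all windows. Neither TATAAA, at 7.59% of windows, nor TGACGTCA, at 1.55%, nor the direct repeat, at 0.033%, was in a window of the 8 listed genes that had one. So no motif of this set was common to Ucp1, Cox8b and Adipoq within these windows, which says nothing of sequences outside them, while all 3 genes were lower in both diabetic libraries as given above.

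Cidec, the droplet protein that builds the large single droplet of white adipocytes, differed in pattern. Its levels were 6.31 in the C57BL/6 control, 5.31 in the C57BL/6 diabetic, 5.55 in the FVB/N control and 5.69 in the FVB/N diabetic library. Only the C57BL/6 control was clearly above background. The C57BL/6 difference of -1.003 is at least 1.22-fold when set against the background level, and in FVB/N the diabetic library was 0.13 higher than control.

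Plin1, which coats the droplet and gates lipolysis, ranged from 4.85 to 5.03 over the libraries. Lep, the hormone gene leptin, ranged from 4.83 to 5.49, and Retn, the hormone gene resistin, from 5.27 to 5.51. All of these values lay below the background level of their library, so no fold is given. Their signed differences between diabetic and control were 0.08 and -0.17 for Plin1, 0.22 and -0.66 for Lep, and 0.03 and -0.25 for Retn, in C57BL/6 and FVB/N in turn.

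Counted over the 6 genes above the minimum, 4 were at least 2-fold lower in the C57BL/6 diabetic library, where 0.989% of all 9201 genes were, and 0 were at least 2-fold higher, against 1.03%. Adipoq and Car3 lay just short of that line and Cidec just past it as measured, with a bound of 1.22-fold. In FVB/N 5 of 6 were at least 2-fold lower, where 2.18% of all genes were, and 0 higher, against 4.05%. At 1.5-fold 6 were lower in C57BL/6 and 5 in FVB/N, against 6.35% and 13.9% of all genes, and 0 were higher in either, against 6.14% and 12.4%. The median difference was -1.26 in C57BL/6 and -2.18 in FVB/N, against 0.0086 and -0.10 over all genes above the minimum. With the 3 dim genes included the medians of the 9 were -0.99 and -1.45. These counts and medians restate the choice of the genes and show nothing further about them. In RNA of a whole organ, fewer cells of a type and less RNA per cell cannot be told apart.

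**Figure D2:**
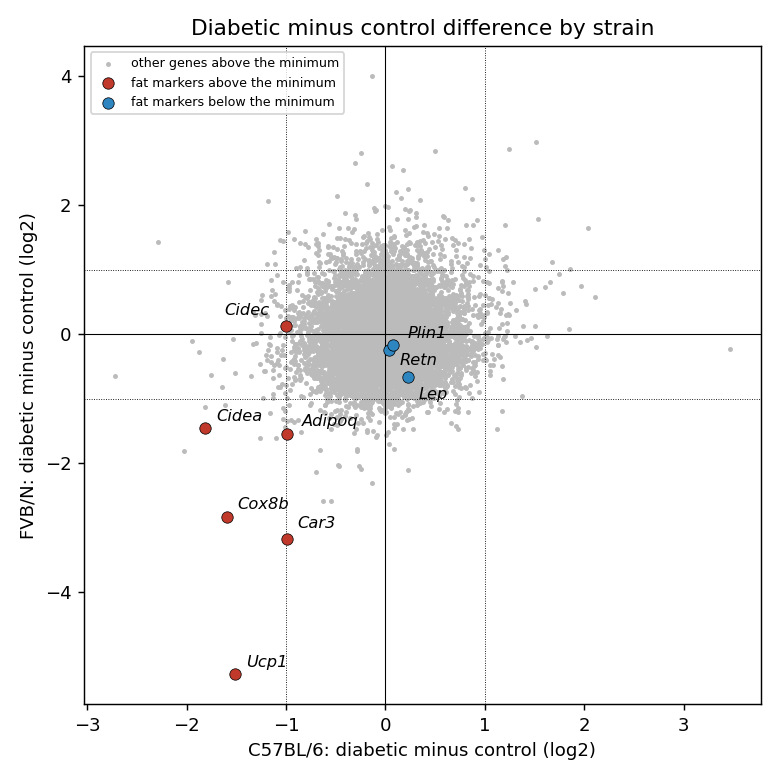
Diabetic minus control log2 difference in C57BL/6 (x axis) against FVB/N (y axis), with 1 point per gene; dotted lines mark 2-fold. Ucp1 stands at -1.51 and -5.27, and Cidea, Cox8b, Adipoq and Car3 lie in the lower left, while Cidec lies on the zero line of FVB/N and Plin1, Lep and Retn lie near the origin.

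As measured, the genes did not differ by equal amounts within a comparison. Among the markers above background in both C57BL/6 libraries, the differences there ran from Cox8b at -1.60 to Adipoq at -0.99. Cidea and Cidec, with diabetic values below background, have only a bound and no place in that order. In FVB/N Ucp1, at least 4.59 log2 lower, was followed by Car3 at -3.17, Cox8b at -2.83, Adipoq at -1.54 and Cidea at -1.45. Relative to Adipoq in the same comparison, the difference of Ucp1 stood at -0.52 in C57BL/6 and, as measured, at -3.73 in FVB/N, where its diabetic value was below background. The same step was -0.61 and -1.29 for Cox8b, and -0.006 and -1.63 for Car3, while for Cidea it was 0.08 in FVB/N. In C57BL/6 Ucp1 and Cox8b thus lay further below control than Adipoq, by steps not far beyond the error of 1 probe's difference, 0.33. A step holds the errors of 2 probes, so its own error is larger, and unequal amounts in C57BL/6 are not settled. In FVB/N, where the error of 1 probe's difference was 0.50, Ucp1, Cox8b and Car3 lay further below by 1.29 or more. These steps also hold the errors of 2 probes. The Car3 step holds for its brighter probe only, since with both probes averaged Car3 stood at -1.69, near Adipoq. Unequal amounts in FVB/N are thus not settled for Cox8b and Car3. Cidea there matched Adipoq to within the error of a single probe.

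Setting the diabetes differences of the strains against each other, the FVB/N difference minus the C57BL/6 one was, as measured, -3.76 for Ucp1, -2.18 for Car3, -1.23 for Cox8b and -0.55 for Adipoq. For Cidea and Cidec, which were below background in the C57BL/6 diabetic library, the sign or size of this value is not determined. Ucp1 and Car3 were thus further below control in FVB/N than in C57BL/6 by more than 4-fold, for Car3 by its brighter probe only. The other Car3 probe, below background, gave -0.33. The difference between the strains was not tested, since each group is 1 library.

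Strain differences were not the criterion for choosing the genes, but the same library values entered the choice through the diabetic minus control differences. The strain differences below, those between the diabetic libraries in particular, are therefore not free of the choice and are a description only. Between the control libraries no fat marker was 2-fold apart, where 2.6% of all genes were at least 2-fold lower in FVB/N and 1.57% at least 2-fold higher. Cox8b stood at 0.78, Car3 at 0.64, Cidea at 0.57 and Adipoq at 0.32 in FVB/N control relative to C57BL/6 control, and Ucp1 at -0.67 and Cidec at -0.76. Cidec in the FVB/N control was below background, so its difference amounts to at least 1.27-fold and its place among the genes 1.5-fold lower is not settled. By the values as measured, 2 were at least 1.5-fold lower and 2 higher, against 6.75% and 6.29% of all genes. As measured, 4 of the 6 were higher and 2 lower in FVB/N, and for each the gap was within 2 standard deviations of that measure for 1 probe, which is 0.41 for this comparison. Between the diabetic libraries, Ucp1 was 4.43 log2 lower in FVB/N, or at least 13.5-fold against background, and Car3 1.54 lower, or 2.90-fold. These were the 2 fat markers at least 2-fold lower there, where 4.92% of all genes were, and 0 were at least 2-fold higher, where 5.58% were. At 1.5-fold these 2 were lower and Cidea was higher, against 16.9% and 14.7% of all genes. Cox8b at -0.45 and Adipoq at -0.23 were close between the diabetic libraries. Cidea at 0.93 was higher in the FVB/N diabetic library, but the C57BL/6 diabetic value lay below background, so it amounts to at least 1.16-fold and its count at 1.5-fold is not settled.

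**Figure D3:**
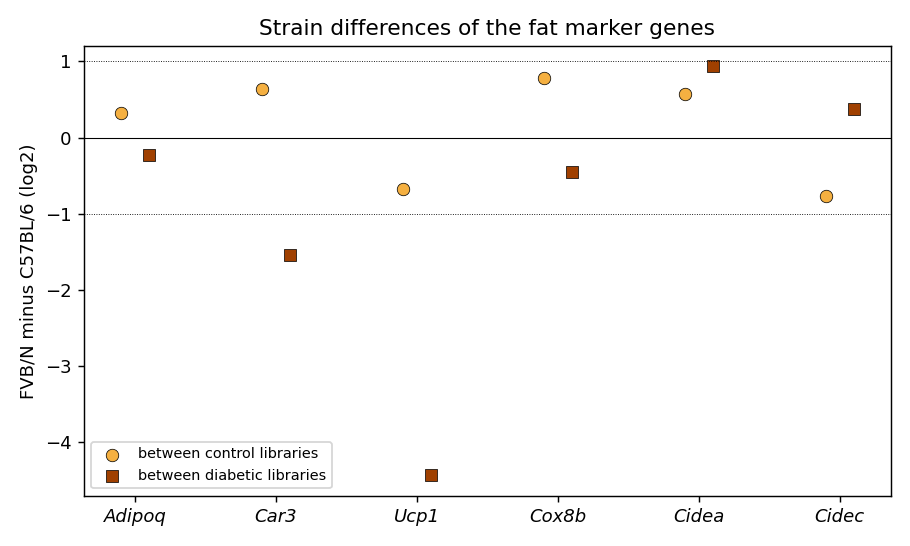
FVB/N minus C57BL/6 log2 difference of the 6 fat marker genes above the expression minimum, between the control libraries (circles) and between the diabetic libraries (squares), with dotted lines at 2-fold. The circles lie between -0.76 and 0.78, while the squares of Ucp1 and Car3 lie at -4.43 and -1.54.

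Other genes of brown fat were given by a list of 25 measured genes beside the markers above. Of these, 15 passed the minimum and 10 were above background in no library. The brown fat determination factors Prdm16, Ebf2 and Zic1 and the fatty acid elongase Elovl3 were among those at background, between 4.79 and 5.42. Dio2, the deiodinase that makes active thyroid hormone in brown fat, was above background in the C57BL/6 control alone, at 6.25 against 5.99, 5.26 and 5.17. In C57BL/6 0 of the 15 were at least 2-fold lower and 0 higher, against 0.989% and 1.03% of all genes above the minimum, with a median of 0.05. In FVB/N 0 were lower and 1 higher, against 2.18% and 4.05%. The higher gene was the pyruvate dehydrogenase kinase Pdk4 at 1.29, and the median was -0.09. In a list of this size, counts of 0 or 1 cannot be told from these shares. Clstn3, which has an adipocyte form that binds droplets, went from 6.55 in control to 5.60 in diabetic in C57BL/6 and from 6.63 to 5.85 in FVB/N, differences of -0.94 and -0.77. Its C57BL/6 diabetic value lay below background, and which form the probe reads is not given. Ppara, the fatty acid oxidation regulator, stood at -0.17 and 0.92 as measured, and the amino acid transporter Slc36a2 at 0.36 and -0.70, each above background in 1 library only. Many of these genes work in kidney too: the fatty acid binding protein Fabp3 was between 13.24 and 13.79, the coactivator Ppargc1a between 9.04 and 9.47, and the oxidase subunit Cox7a1 between 9.84 and 10.46. The summed linear intensity of the 25 genes was 28332 in the C57BL/6 control, 28086 in the C57BL/6 diabetic, 26768 in the FVB/N control and 29314 in the FVB/N diabetic library. Most of it came from Fabp3 and from Slc27a2, between 12.76 and 13.40, so the sum says little of the dimmer genes.

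For white and general fat, 32 further genes were measured, 21 passed the minimum and 10 were above background in no library. The adipocyte lipid carrier Fabp4 lay between 5.14 and 5.59, the adipocyte master regulator Pparg between 4.95 and 5.57 and its partner Cebpa between 4.76 and 5.47, all at background in every library. Among those that passed, 0 of 21 were at least 2-fold lower or higher in C57BL/6, against 0.989% and 1.03% of all genes above the minimum. In FVB/N 1 was lower and 0 higher, against 2.18% and 4.05%. Counts of 0 or 1 among 21 genes cannot be told from these shares. That gene was Thrsp, the thyroid-responsive regulator of lipogenesis, at -0.99 in C57BL/6 and -1.35 in FVB/N, from 6.11 and 6.35 in the controls to background in both diabetic libraries. The fatty acid transporter Cd36 stood at 0.49 and -0.99, the caveola protein Cav1 at -0.01 and -0.96, and Mest at 0.88 and 0.30. The medians were -0.06 and -0.19. Of the lipases, hormone-sensitive lipase, Lipe, stood at -0.66 and 0.00, lipoprotein lipase, Lpl, at -0.73 and -0.48 and the main triglyceride lipase of droplets, Pnpla2, at -0.21 and 0.45. The inhibitor of Pnpla2, G0s2, stood at 0.32 and 0.79, and the droplet coat Plin4 at -0.82 and -0.14. The summed linear intensity of the 32 genes was 47329, 39628, 45896 and 43013 in the C57BL/6 control, C57BL/6 diabetic, FVB/N control and FVB/N diabetic library. The largest part of it came from Gpd1, between 14.14 and 14.37, so the sum says little of the dimmer genes. The part of the 32 genes in the differences of the fat markers was not tested.

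Lipogenesis is a pathway that fat and kidney share. Of 18 measured genes 14 passed, and 3 were at least 2-fold lower in C57BL/6 and 4 in FVB/N, against 0.989% and 2.18% of all genes above the minimum. In either strain 0 were at least 2-fold higher, against 1.03% and 4.05%. The 4 in FVB/N include Thrsp, whose diabetic value lay below background. The list overlaps the white fat list in Thrsp, Agpat2 and Dgat2. Fatty acid synthase, Fasn, was 11.85 and 9.83 in the C57BL/6 control and diabetic libraries and 11.84 and 10.04 in the FVB/N ones. The desaturase Scd1 differed by -1.62 and -1.10. Pnpla3, a lipid droplet hydrolase, was high in the FVB/N control alone, at 8.71 against 5.99, 5.37 and 6.14. The list medians were -0.60 in C57BL/6 and -0.24 in FVB/N.

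**Figure D4:**
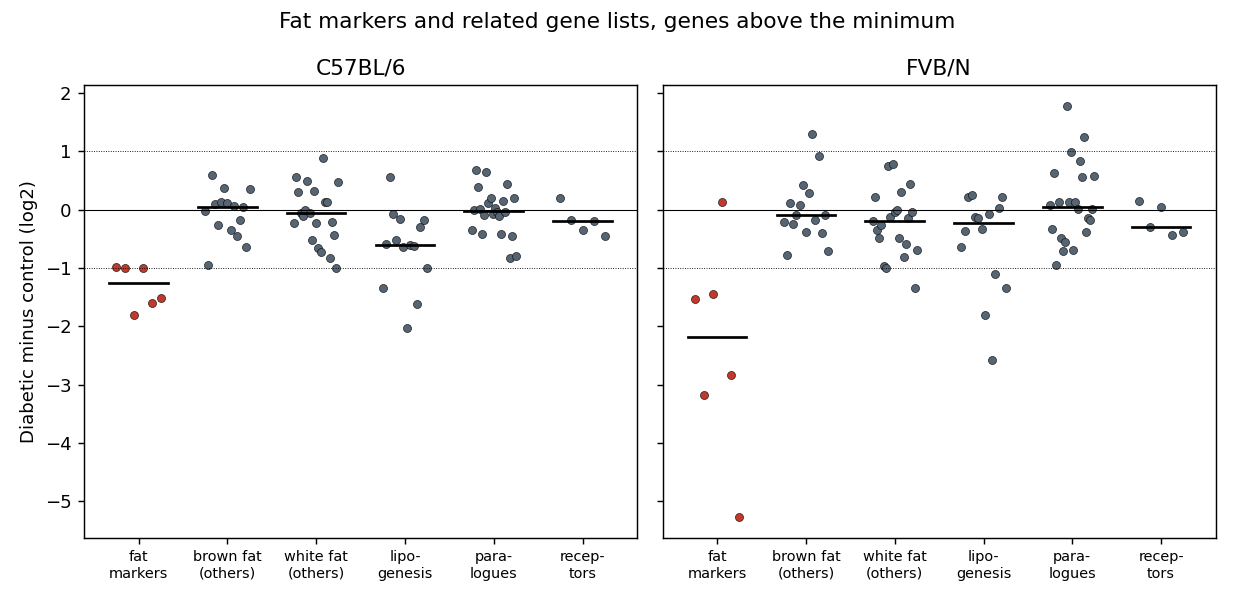
Diabetic minus control log2 difference for the fat markers (red) and for 5 related gene lists without them (grey), in C57BL/6 on the left and FVB/N on the right, with 1 point per gene above the minimum, a bar at each list's median and dotted lines at 2-fold. The other brown fat genes have medians of 0.05 and -0.09 and the other white fat genes of -0.06 and -0.19, while the fat markers, chosen for being lower, have medians of -1.26 and -2.18.

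Paralogues show which family members the fat forms stand beside. Cox8a, the form of the oxidase subunit used in most tissues, was at 14.19 and 14.33 in C57BL/6 and at 14.18 and 14.74 in FVB/N, differences of 0.14 and 0.56, where those of Cox8b were -1.60 and -2.83. Ucp3, the muscle uncoupling protein, was at background in all 4 libraries, between 5.15 and 5.45. Cideb, the relative of Cidea and Cidec best known from liver, stood at -0.42 and 0.83. Plin2, the droplet coat of most cell types, was at 8.10 and 8.06 in C57BL/6 and at 7.67 and 8.91 in FVB/N, so it was 1.24 higher in the FVB/N diabetic library. Among carbonic anhydrases, Car2 stood at 0.20 and 0.13, the membrane-bound Car4 at -0.08 and 0.98 and Car15 at 0.12 and 1.79, where the brighter Car3 probe was at -0.99 and -3.17. Car12 stood at -0.09 and -0.71, Car13 at 0.65 and -0.55 and the mitochondrial Car5a at 0.03 and -0.70, and the adiponectin relative C1qtnf3 at 0.39 and -0.95. The others above the minimum lay between Retnlg at -0.79 and C1qtnf2 at 0.68 in C57BL/6, Plin4 aside, and between C1qtnf9 at -0.49 and C1qtnf2 at 0.62 in FVB/N. Of 22 paralogues above the minimum, 0 were at least 2-fold lower in either strain, against 0.989% of all genes in C57BL/6 and 2.18% in FVB/N. At least 2-fold higher were 0 in C57BL/6 and 2 in FVB/N, Plin2 and Car15, against 1.03% and 4.05%.

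The receptors for adiponectin were well expressed. Adipor1 was between 10.85 and 11.06 and Adipor2 between 10.24 and 10.58, with differences of 0.21 and 0.16 for the first and -0.17 and -0.29 for the second. The adiponectin-binding cadherin Cdh13 stood at -0.19 and -0.44. Lepr, the leptin receptor, was at background in all 4 libraries, between 5.26 and 5.74, as was C3ar1. Cap1, which binds resistin in human cells, was higher in FVB/N, at 10.16 in control and 10.22 in diabetic against 8.59 and 8.24 in C57BL/6, and Tlr4 stood at -0.44 and -0.39. None of the 5 receptors above the minimum was 2-fold apart between diabetic and control in either strain. Of all genes, 0.989% were lower and 1.03% higher in C57BL/6, and 2.18% and 4.05% in FVB/N.

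Tissues that lie near the kidney or share the markers were checked by their own lists. Skeletal muscle expresses Car3 and Cox8b. In these libraries 9 of 12 measured muscle genes were above background in no library, among them the creatine kinase Ckm, the actin Acta1, the myosins Myh2 and Myh4 and myoglobin, Mb. The exceptions were Pvalb, also a gene of the distal convoluted tubule, at 11.13, 11.43, 12.95 and 12.24 in the C57BL/6 control, C57BL/6 diabetic, FVB/N control and FVB/N diabetic library, with Tnnc2 between 5.55 and 6.31 and Actn3 between 5.82 and 6.39. The summed linear intensity of the muscle list, most of it from Pvalb, was 2669, 3214, 8404 and 5218 in the same order, and its part in the Car3 and Cox8b differences was not tested. Of the adrenal medulla list 5 of 5 genes were above background in no library, and of the adrenal cortex list 6 of 10. Of that list the side-chain cleavage enzyme Cyp11a1 was among the 6, while the steroidogenic factor Nr5a1, between 6.42 and 6.85, the dehydrogenase Hsd3b1, between 5.88 and 6.70, and the lipoprotein receptor Scarb1, between 8.09 and 8.63, were above background in all 4 libraries. The stroma of fat, a list of 9 genes with 8 above the minimum, had 0 genes 2-fold lower in C57BL/6 and 1 in FVB/N, against 0.989% and 2.18% of all genes. The 1 was the matrix proteoglycan Lum at -1.09, which stood at 0.32 in C57BL/6. The medians of the stroma list were 0.02 and -0.32. In the pancreas and lymphoid list 5 of 10 genes were above background in no library. The amylase Amy2a5 stood at -0.46 and -1.34, while the brighter Cela1, between 11.66 and 12.38, stood at 0.22 and 0.72. Cr2 stood at -0.55 and -0.84 and Ms4a1 at -0.57 and -0.16, each above background in 1 library only.

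Genes whose pattern over the 4 libraries was most like the markers were ranked by the distance of their centred log2 values from the mean of the 6 markers above the minimum. That mean stood at 0.84 in the C57BL/6 control, -0.47 in the C57BL/6 diabetic, 0.99 in the FVB/N control and -1.36 in the FVB/N diabetic library. Nearest were Mdk, a heparin-binding growth factor, at a distance of 0.64, the organic anion transporter Slc22a8 at 0.70 and Nrep at 0.71. They were followed by Il18bp at 0.78, Fasn at 0.79, Sned1 at 0.80, the heat shock protein Hsph1 at 0.83, Sypl2 at 0.85, the organic anion transporter Slc22a7 and Thrsp, both at 0.86. Pearson correlations with the mean profile, over 4 libraries, were between 0.92 and 0.999, values that only 4 points make easy to reach. The shared pattern of the nearest genes follows from this ranking and is no result about them. The markers themselves lay at 0.63 for Car3, 0.66 for Cox8b, 0.75 for Adipoq, 1.34 for Cidea, 1.78 for Cidec and 3.003 for Ucp1. The mean holds these markers and is drawn towards them, so their distances are not on one footing with those of other genes. Of 9034 named non-member genes, 8848 lay nearer to the mean profile than Ucp1 did.

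**Figure D5:**
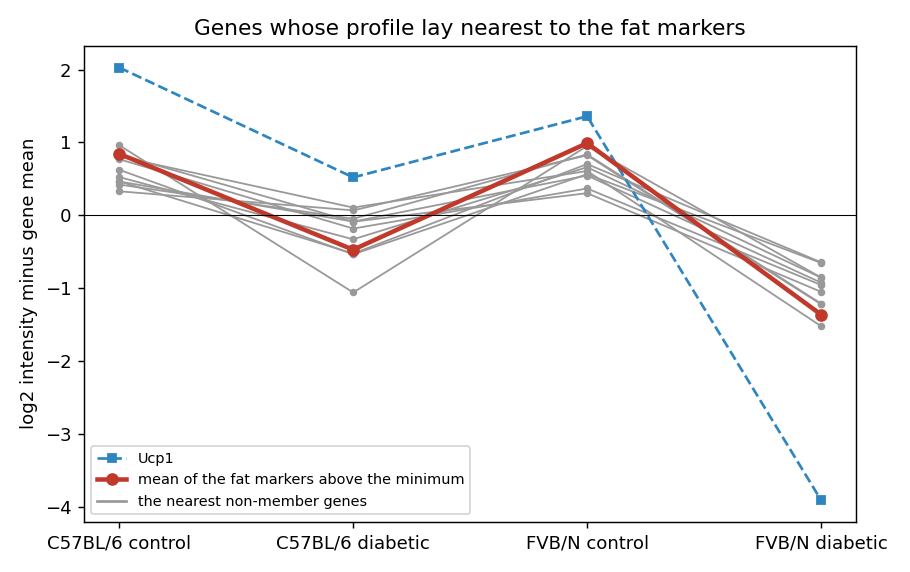
Log2 intensity minus each gene's mean over the libraries, for the mean of the 6 fat markers above the minimum (red), the 10 nearest non-member genes (grey) and Ucp1 (blue, dashed), with lines joining the 4 libraries of 1 group each. Red and grey are lower in both diabetic libraries than in both controls, which follows from how the markers and the nearest genes were chosen. Ucp1 falls far below them in the FVB/N diabetic library.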

How the data were processed

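Kidney RNA of 4 groups was measured on Illumina mouse bead arrays. Per the labels, RNA extracted with Trizol was treated with DNase, checked on a Bioanalyser and made into biotinylated cRNA stained with streptavidin-Cy3. The deposited log2 values have near-identical distributions over the libraries, with medians of 5.48 to 5.49; how the authors normalized, background-corrected, filtered or pooled is not given in the sources. That the scale is log2 is read from the range of the values.

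Values were used as deposited. Of 24613 probes, 20984 had exactly 1 gene symbol in the platform annotation, and a gene was represented by its brightest probe. Differences were taken between libraries, and genes at least 2-fold apart were counted as called, with 1.5-fold, quantile normalization, median centring, loess (span 0.3), other filters and averaged probes as alternatives. Differences of list genes are given as measured, also where a value lay below background. With 1 library per group no test was run. The counting was tested on simulated data. The genes and lists were chosen with earlier results of these data known. Named genes are all markers, all receptors, up to 4 genes per list with the largest difference, the 10 nearest in profile, and paralogues; other genes in the text were chosen after their values were seen. Python 3.11.15, pandas 2.3.3 and statsmodels 0.14.6 were used.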

Additional observations from a re-analysis of the deposited data

Results flagged for a closer look

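For 4 fat markers the diabetic minus control difference had opposite signs in the 2 strains, and the difference between strains was not tested. Cidec stood at -1.003 in C57BL/6 and 0.13 in FVB/N. Plin1 stood at 0.0758 and -0.166, Lep at 0.22 and -0.66, and Retn at 0.0339 and -0.245. Plin1, Lep and Retn were below the background level in all 4 libraries, and Cidec was above it in 2 of 4.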

How the results depend on the processing

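A change of filter leaves a marker's difference as it is, and averaging probes can alter only Car3, the only marker with a second probe. Many of the 148 differences of single markers over 6 alternatives could thus not move. Of all 148, 145 moved by less than the error of 1 probe's difference and 0 called ones reversed. The other 3 are those of Car3 with all its probes averaged, at -0.44 in C57BL/6, -1.69 in FVB/N and -0.81 between the diabetic libraries, since the second probe lies at background; with it the count at least 2-fold lower between the diabetic libraries went from 2 to 1 and the FVB/N median from -2.18 to -1.61. With no filter that median was -1.45, and with the stricter filter, which leaves 4 markers, -2.998, while the C57BL/6 count went from 4 to 2 and the median between the diabetic libraries from -0.34 to -0.996. At 1.5-fold 2 markers were lower and 2 higher in FVB/N between controls, and 1 was higher between the diabetic libraries, as was 1 with loess centring at 2-fold. Loess centring also took the C57BL/6 count from 4 to 5, with Adipoq at -1.0002 and Car3 at -1.007 past 2-fold and Cidec at -0.995 short of it. Quantile normalization and median centring moved no count or median beyond these limits. No paired analysis was possible because each group has 1 library. Signal near background limits Ucp1 and Cidea in 1 library each, Cidec in 2, and Plin1, Lep and Retn in all.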
